A study of Mus musculus with 24 samples.

Results

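The apolipoprotein genes described here are 10 genes, Apoa1, Apoa2, Apoa4, Apoa5, Apob, Apoc1, Apoc2, Apoc3, Apoe and Apom, taken by gene symbol from a table of 19015 genes. All 10 were found in the table. RNA was sequenced from liver, brown adipose tissue (BAT), inguinal adipose tissue (IAT) and brain of female mice aged 12 weeks that were wildtype (WT) or knockout (KO) for Prxl2a. Each tissue gave 3 WT and 3 KO libraries, 24 in all, and every mouse was perfused with PBS to clear the blood before the tissues were frozen. The labels used here give neither the strain nor how the allele was made, nor whether it acts in every cell type. The labels name 3 mice per genotype, so the tissues may share mice.

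Apolipoproteins are the protein part of lipoproteins, the particles that carry triglyceride and cholesterol in blood. Liver and small intestine are their main sources. Apob is the scaffold of very low density and low density lipoproteins, Apoa1 and Apoa2 are the main proteins of high density lipoprotein (HDL), and the C group and Apoa5 act on lipoprotein lipase and on particle uptake. Apoe, the ligand by which remnant particles bind the LDL receptor family, is also known from macrophages and astrocytes.

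Total counts ran from 12327459 to 18257788 per library. Prxl2a was lower in the KO libraries of every tissue, with a log2 fold change of -5.65 in liver, -4.45 in BAT, -4.58 in IAT and -4.17 in brain. The edgeR adjusted p was 1.08e-05, 1.09e-05, 0.0912 and 0.000131 in that order. The tissue labels held for their defining markers: the albumin gene Alb was at 76959 to 104739 TPM (transcripts per 1e6 transcripts) in liver, the uncoupling protein gene Ucp1 at 2710.4 to 5124 TPM in BAT, the adipokine gene Adipoq at 2172 to 5376 TPM in IAT, and the synaptic gene Snap25 at 2851 to 4041 TPM in brain. The IAT libraries stood apart from each other. The summed TPM of 10 lymphocyte markers was 2135 in KO 1 and 1049 in KO 3 against 4.99 to 17.2 in the other 4, and that of 8 skeletal muscle markers was 1313 in WT 1 and 4956 in WT 2 against 8.14 to 50.3 in the rest. BAT WT 1 stood apart too, with a muscle sum of 1941 TPM against 3.22 to 106 in the other BAT libraries. RNA per cell and the number of cells of a type cannot be told apart in such bulk tissue.

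The sequences just upstream of the start sites are shown first, because some members were near 0 outside liver and Apoe was abundant in every tissue. RefSeq (GRCm38.p6) promoter entries were found for 8 of the 10 members, with 12 start sites, and not for Apoc1 and Apoc3. Each line below gives the 150 bases before a start site, 5′ to 3′ in the direction of the gene, and capitals mark matches to the motifs searched. Apoa1, Apoa5 and Apom are liver genes in these data, Apoc2 is one with a low level in IAT, and Apoe is the gene read everywhere.
Apoa1, chr9:46228480-46228629, plus strand: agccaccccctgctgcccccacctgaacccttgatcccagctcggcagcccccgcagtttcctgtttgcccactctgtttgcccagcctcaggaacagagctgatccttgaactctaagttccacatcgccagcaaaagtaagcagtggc
Apoa5, chr9:46268458-46268607, plus strand: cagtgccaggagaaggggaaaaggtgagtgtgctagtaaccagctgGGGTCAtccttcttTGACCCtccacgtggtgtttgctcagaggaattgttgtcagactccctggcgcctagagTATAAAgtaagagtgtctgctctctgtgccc
Apom, chr17:35131802-35131951, minus strand: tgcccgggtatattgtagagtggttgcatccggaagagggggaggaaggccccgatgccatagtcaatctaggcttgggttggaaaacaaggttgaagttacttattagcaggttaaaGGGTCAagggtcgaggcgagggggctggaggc
Apoc2, chr7:19677942-19678091, minus strand: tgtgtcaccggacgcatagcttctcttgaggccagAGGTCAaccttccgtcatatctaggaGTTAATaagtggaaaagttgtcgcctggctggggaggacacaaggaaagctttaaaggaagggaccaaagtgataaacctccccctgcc
Apoe, chr7:19699189-19699338, minus strand: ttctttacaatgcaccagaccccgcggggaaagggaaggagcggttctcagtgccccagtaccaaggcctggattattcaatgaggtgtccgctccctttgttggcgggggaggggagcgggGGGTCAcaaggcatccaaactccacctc

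Motifs were searched on both strands in the 250 bases before each start site, and positions count back from the start site, with -1 the last base before it. The nuclear receptor hexamer GGGTCA was present in Apoa5, Apom and Apoe, and in 11.6% of the 32817 windows of the RefSeq table. In Apoa5 it occurred at -104 to -99 and, on the other strand, at -90 to -85, and in Apoe at -28 to -23. Apom held it at -32 to -27 and again at -156 to -151, beyond the bases shown. Apoa5 and Apom, near 0 outside liver, and Apoe, abundant in every tissue, thus all held this hexamer, and Apoa1 did not. The related hexamer AGGTCA, present in 14.03% of windows, was found in Apoc2 at -115 to -110 and before the second start site of Apoa2.

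The core CAAAGTNCA of the HNF4A motif, HNF4A being a main hepatocyte transcription factor, was in 1.19% of windows and among the members in Apoa4 alone, at -182 to -174. GTTAAT, a part of the HNF1 motif found in 6.44% of windows, was in Apoc2 at -89 to -84 and before the third start site of Apoe. TTGCNNAA, a C/EBP core found in 9.57% of windows, was in Apob and before the second start site of Apoa2. The FOXA core TGTTTAC, found in 3.16%, was before the first start site of Apoa2. The TATA box TATAAA, in 12.4% of windows, was in Apoa2, Apoa5, Apob and Apoe. It lay at -31 to -26 before the first start site of Apoa5 and at -60 to -55 in Apob. In Apoa2 it lay farther off, at -212 to -207 before the first start site. In Apoe it was found before the second start site, not the one shown, at -100 to -95 and -96 to -91. The SP1 motif GGGCGG, in 32.7% of windows, was found in none of the 8 members, and Apoa1 matched none of the 8 motifs. Members with several start sites had more bases to match, and a match is a run of letters, not a bound site.

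In WT liver the members were among the most abundant transcripts. Levels are TPM, which is per length, so genes can be compared. The mean was 22799 ± 1324 (SD, n = 3) for Apoa2, 21683 ± 1155 for Apoc1, 21589 ± 1831 for Apoe and 13306 ± 1898 for Apoa1, which ranked 2, 3, 4 and 9 among the 19015 genes. Together the 10 genes took 8.65 to 9.70% of all TPM in the 6 liver libraries, 0.434 to 0.539% in BAT, 0.390 to 0.672% in IAT and 0.221 to 0.291% in brain.

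The HDL genes were high in liver. Apoa1 was at 11169, 14795 and 13954 TPM in the 3 WT livers, and Apoa2 at 24269, 21701 and 22428 TPM. Apoa4, known mainly as an intestinal apolipoprotein on chylomicrons and HDL, was the lowest member, at 188, 169 and 178 TPM and rank 724. Apom, which binds sphingosine 1-phosphate on HDL, was at 571, 717 and 688 TPM. Apob, scaffold of the triglyceride-rich particles, was at 379, 424 and 421 TPM, rank 357. Its transcript is long, so on the count scale it stood much higher: 215414 counts over the 3 WT livers against 175470 for Apoa2.

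The genes that act on lipoprotein lipase were far apart in level. Apoc3, an inhibitor of the lipase, was at 8338, 8189 and 8143 TPM. Apoa5, which promotes lipolysis, was at 956, 1147 and 947 TPM. Apoc2, the cofactor the lipase needs, was at 346, 271 and 345 TPM. Apoc1, which hinders lipoprotein uptake and lipolysis, was at 21981, 22659 and 20407 TPM, and Apoe at 22007, 23174 and 19585 TPM. The ranges of Apoa2, Apoc1 and Apoe overlapped, so their order at the top was within the spread of the libraries, whereas Apoa1, Apoc3, Apoa5, Apom and Apob followed without overlap. Apoc2 and Apoa4 came last, also without overlap.

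**Figure D1:**
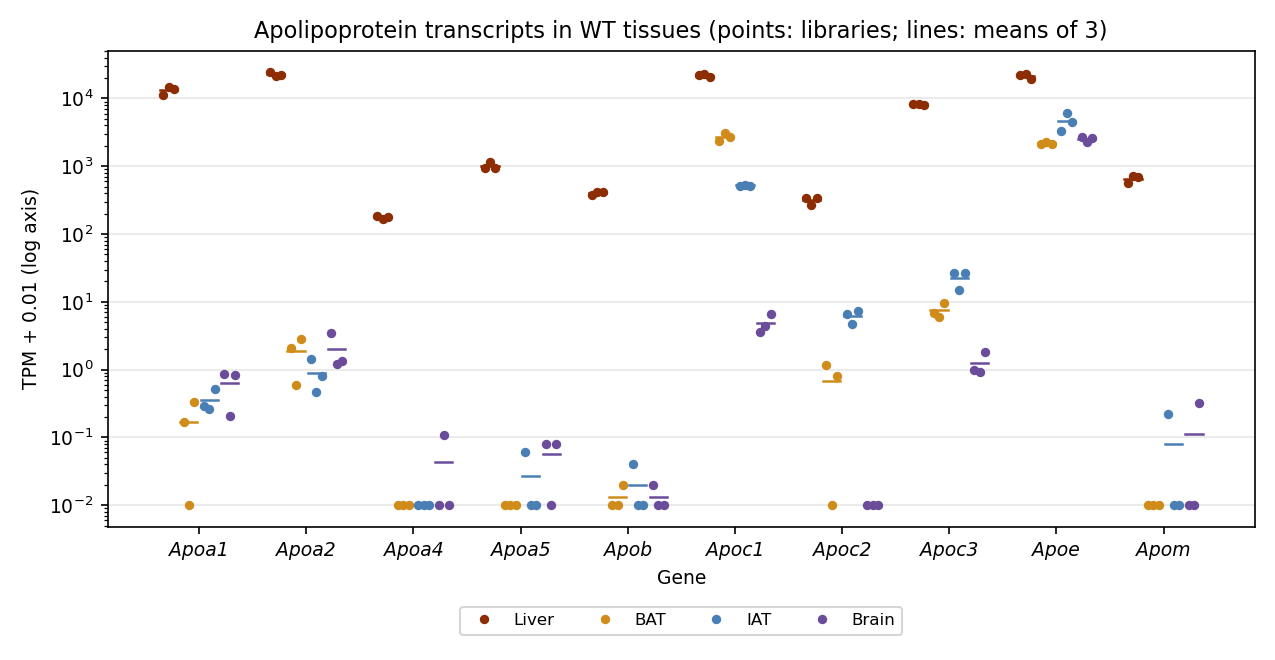
TPM of the 10 apolipoprotein genes in WT tissues on a log axis, with 0.01 added so that libraries at 0 can be drawn. Points are libraries and lines the means of 3. Liver is highest for each gene, and Apoc1 and Apoe stay above 500 TPM in both fat tissues, while in brain Apoe alone does.

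Each of the 10 genes differed between the WT tissues (edgeR F-test on the 12 WT libraries, adjusted p under 0.05), as did 96.1% of the 15810 genes tested. The count says little by itself. Apoa1, Apoa2, Apoa4, Apoa5, Apob and Apom had at most 22 counts per WT group outside liver. They passed the filter through their liver counts, so a higher level in liver was built in for them. All 10 were higher in liver than in BAT, in IAT and in brain in the contrasts of that fit, where 65.7%, 69.7% and 82.2% of genes were called in either direction and 29.7%, 32% and 39.5% were called higher in liver. The smallest of the 30 differences was that of Apoe between liver and IAT, at 3.37 on the log2 scale (SE 0.24, adjusted p = 2.3e-07). These differences are on the count scale with TMM scaling, so their size is not that of the ratio of TPM. For Apoe the liver to IAT ratio was 10.4 in the fit and 4.62 in TPM. For Apoa2 the liver to BAT ratio went the other way, at 9747 in the fit and 12346 in TPM.

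Apoa1, Apoa4, Apoa5, Apob and Apom were all but unread outside liver. Over the 9 WT libraries of BAT, IAT and brain, Apoa1 reached at most 0.85 TPM and Apom at most 0.31 TPM, and Apoa4, Apoa5 and Apob stayed at or under 0.10 TPM. Apoa4, Apoa5 and Apom had 0 counts in the 3 WT BAT libraries, and Apob had 1 count in all of them. A count of 0 in 1 library, taken alone, allows an expected count of up to about 3 there. Apoa2 was slightly above these, with 22 counts in WT BAT, 12 in IAT and 17 in brain, at 0.46 to 3.48 TPM. Its libraries overlapped between these 3 tissues. The contrast of Apoa2 between BAT and IAT (log2 difference 1.54, adjusted p = 0.022) rested on those few counts and was lost under 5 of 17 other settings, with adjusted p up to 0.20.

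Apoe was abundant in every tissue. Between tissues other than liver, 57% of genes were called for BAT minus IAT (26.7% higher in BAT), 79.2% for BAT minus brain (38.7% higher in BAT) and 80% for IAT minus brain (39.9% higher in IAT), which is the background for the contrasts that follow. In WT libraries Apoe was at 3343, 6168 and 4519.9 TPM in WT IAT, at 2685, 2313 and 2639 TPM in WT brain, and at 2155, 2248 and 2162 TPM in WT BAT. That placed it at rank 14 in IAT, 14 in brain and 76 in BAT. IAT exceeded brain by 1.63 on the log2 scale (SE 0.22, adjusted p = 3.3e-05), or 3.11-fold, where the ratio of mean TPM was 1.84 and log2(TPM + 1) gave 0.84. IAT exceeded BAT by less: the BAT-minus-IAT difference was -0.67 (SE 0.22, adjusted p = 0.021), and it was no longer called without BAT WT 1 (-0.66, adjusted p = 0.063), without BAT WT 3 (-0.65, 0.067) or without IAT WT 2 (-0.44, 0.11). BAT and brain had no settled order. In the edgeR fit BAT was higher by 0.97 (SE 0.22, adjusted p = 0.0016), but in TPM the 3 brain libraries were all above the 3 BAT libraries, and limma on log2(TPM + 1) gave -0.22 (adjusted p = 0.30).

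Apoc1 ranked the tissues otherwise than Apoe. In WT BAT it was at 2328, 3139 and 2696 TPM, rank 55, in IAT at 517, 532 and 518 TPM, rank 288, and in brain at 3.55, 4.32 and 6.55 TPM from 13 counts in all. No library of a tissue reached the next tissue. BAT exceeded IAT by 2.72 on the log2 scale (SE 0.16, adjusted p = 3.1e-07) and between 2.37 and 2.78 in the 17 other settings. Both genes were thus present in fat, with Apoc1 higher in BAT and Apoe in IAT, and Apoe alone was abundant in brain.

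Apoc3 and Apoc2 had low levels in fat. Apoc3 was at 26.7, 14.7 and 27.0 TPM in WT IAT (170 counts), 6.81, 6.07 and 9.65 TPM in BAT (44 counts) and 0.99, 0.91 and 1.84 TPM in brain (4 counts). BAT was below IAT, with a BAT-minus-IAT difference of -1.25 (SE 0.28, adjusted p = 0.0028). Apoc2 was at 6.64, 4.64 and 7.31 TPM in IAT (88 counts), at 1.18, 0 and 0.80 TPM in BAT and at 0 in the 3 brain libraries. Its BAT-minus-IAT difference was -2.90 (SE 0.54, adjusted p = 0.0014), and BAT against brain, 7 counts against 0, was called with all libraries (adjusted p = 0.014) but not without BAT WT 1 (adjusted p = 0.053). The size of that difference depends on how a count of 0 is handled, with fitted values of 0.66 to 5.25, so no fold is given. Apoc2 was also the member whose expected counts were not whole numbers, in 11 of 24 libraries (tolerance 0.001), as happens where reads that match several features are shared out, so its values are less certain.

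The 20 hepatocyte markers were not all near 0 outside liver. Alb was at most 0.91 TPM in BAT and brain and 16.6 to 64.8 TPM in IAT. The urea cycle gene Cps1 was at 0 in IAT and at most 0.02 TPM in BAT, Ambp, a plasma protein gene, at most 0.09 TPM in fat, and the transthyretin gene Ttr at 0 in all 12 fat libraries. Other markers were detected in IAT. The urinary protein gene Mup3 was at 6.62 to 23.7 TPM and Serpina3k at 1.76 to 7.57 TPM. The fibrinogen gene Fgb was at 0.36 to 6.44 TPM. Serpina1b was at 17.6 TPM in KO 1 and 7.57 TPM in KO 3, the lymphocyte-rich libraries. In the other IAT libraries it was at 0.28 to 0.90 TPM. Of the 20 markers, 3 to 7 were at 0 in the IAT libraries and 8 to 12 in the BAT libraries. Their sum ran from 2719 to 7400 TPM in IAT, mostly Cyp2e1 and Trf, which fat also expresses, and from 176 to 599 TPM in BAT. In brain the sum was 241 to 2310 TPM, with Ttr, which the choroid plexus also makes, at 10.8 to 2151 TPM and Trf at 155 to 350 TPM, and 10 choroid plexus markers summed to 281 to 2510 TPM. Of the other possible sources, 14 macrophage and microglia markers summed to 1724 to 9456 TPM in IAT, 212 to 679 TPM in BAT and 467 to 597 TPM in brain, and 10 astrocyte markers to 2437 to 3012 TPM in brain. None of the macrophage markers was at 0 in any library. The part of these cells in the levels of the apolipoprotein genes was not tested.

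Of the 10 genes, 7 lie in 2 clusters (GRCm38.p6). On chromosome 9, Apoa1 (46228630 to 46230469), Apoc3 (46233050 to 46235636) and Apoa4 (46240844 to 46243458) follow each other, and Apoa5 (46268608 to 46271921) starts 25150 bases further on. Apoc3 was read in fat at 7.51 and 22.8 TPM on average, while Apoa1, on one side of it at 2581 bases, had 0.16 and 0.34 TPM and Apoa4, on the other at 5208 bases, had 0 and 0 TPM. The flanking genes were read in every tissue, with Sik3 at 7.55 to 49.3 TPM and Zpr1 at 11.0 to 37.5 TPM. Within the cluster Apoc3 was thus the gene with a level in fat.

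On chromosome 7 the order is Apoc2 (19671579 to 19677941), Apoc4, Apoc1 (19689480 to 19692659) and Apoe (19696244 to 19701310), with Tomm40, a mitochondrial import gene, 3 bases beyond. Apoc4, which is not among the 10 genes, lies 143 bases from Apoc2. It was at 3101 TPM in WT liver but 1.41 TPM in IAT, 0.35 TPM in BAT and 0 in brain. In fat the cluster split by place: Apoc1 and Apoe, 3585 bases apart, had WT means of 523 to 4677 TPM, and Apoc2 and Apoc4 at 6.20 TPM or less. Brain drew the line between Apoc1 and Apoe. The flanking genes Clptm1 (53.1 to 158 TPM) and Tomm40 (35.9 to 105 TPM) were lowest in liver. Apoa2 on chromosome 1, Apob on chromosome 12 and Apom on chromosome 17 lie apart.

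The resemblance of the genes over the 24 libraries followed these levels. Likeness is Pearson's r of log2(TPM + 1) over libraries of 4 tissues, so it mostly reflects the tissues and is a description. Apoa1, Apoa2, Apoa4, Apoa5, Apob and Apom had r of 0.9947 or more with each other. Apoc1 had 0.632 to 0.808 with the other members. Among 14640 candidate genes, those most like Apob were the clotting factor genes Fga and F13b, most like Apoa1 Ambp and Ahsg, most like Apoa2 Kng1 and Fgfr4, most like Apom Mbl2 and C4bp, most like Apoa4 Prodh2 and Ugt2a3, and most like Apoa5 Ly6g2 and Ces3b. Apoc2 was most like Alb and Mup3, and Apoc3 most like Pemt and Reep6. Apoe was most like Hsd17b11 (r = 0.991) and Epha1, and Apoc1 most like Aldh9a1 (r = 0.989) and Gys2, the liver glycogen synthase.

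Loss of Prxl2a was not accompanied by a detectable change of an apolipoprotein gene in liver. All 10 passed the filter on low counts, and 0 of 10 were called by edgeR's quasi-likelihood test (adjusted p under 0.05), where 1.11% of the 12331 genes tested were called (0.576% higher and 0.535% lower in KO). At an unadjusted p under 0.05 the count was also 0 of 10, against 16.1% of all genes, and DESeq2 and limma-voom called 0. That unadjusted count was not fixed. It was 1 with DESeq2, without a filter, with the replicate number as a block and without KO 2, and 3 without WT 1. The share of all genes at that p was not worked out under these settings, so these counts have no background. Log2 fold changes ran from -0.13 to 0.22, with 7 values above 0 and 3 below. Their median was 0.14, beside -0.0045 over all genes. On log2(TPM + 1) the split was 6 above and 4 below with a median of 0.026, beside -0.075 over all genes, and Apoa5 was at -0.23, Apob at -0.15 and Apom at -0.22. The 95% intervals together spanned -0.42 to 0.58, so a change of 2-fold, a log2 value of 1, lay outside the interval of each gene.

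Among the genes of HDL proteins, Apoa1, Apoa2 and Apoa4 had values of 0.20 to 0.22 and Apom one below 0. Apoa4 had the smallest p: WT livers were at 188, 169 and 178 TPM and KO livers at 210.02, 178 and 198 TPM, overlapping at the low KO library. Its log2 fold change was 0.22 (SE 0.10, 95% interval -0.0040 to 0.45, adjusted p = 0.32). For Apoa1, WT livers were at 11169, 14795 and 13954 TPM and KO livers at 12116, 17258 and 13237 TPM, so 1 KO library was above and the others within the WT range. The change was 0.20 (SE 0.17, adjusted p = 0.60). Apoa2, with KO livers at 21723, 24627 and 26725 TPM, gave 0.22 (SE 0.16, adjusted p = 0.54). Apom was at 645, 475 and 586 TPM in the KO livers, a value of -0.10 (SE 0.12, adjusted p = 0.74) that turned to 0.02 without KO 2. These 4 genes overlapped between the genotypes.

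Apob and Apoa5 had values below 0. Apob was at 384, 364 and 358 TPM in the KO livers and 379 to 424 TPM in the WT livers, with a change of -0.06 (SE 0.11, adjusted p = 0.85). Apoa5 was at 753, 881 and 971 TPM in KO against 947 to 1147 TPM in WT, with a change of -0.13 (SE 0.13, adjusted p = 0.65). For both, the highest KO library lay within the WT range.

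Apoc1, Apoc2, Apoc3 and Apoe had small values above 0. Apoe was at 21471, 21895 and 22683 TPM in KO, inside the WT range of 19585 to 23174 TPM (0.13, SE 0.15, adjusted p = 0.73). Apoc1 was at 21058, 21899 and 23024 TPM in KO (0.16, SE 0.14, adjusted p = 0.64), and Apoc2 at 316, 342 and 337 TPM (0.15, SE 0.13, adjusted p = 0.60). Apoc3, at 7809.6, 7585 and 8860.1 TPM in KO, gave 0.10 (SE 0.13, adjusted p = 0.75) on counts and -0.03 on log2(TPM + 1), so it had no settled sign.

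The effective length of a gene, worked out from the deposited counts and FPKM, was not the same in every library, and the part of this in the sign of Apoc3 was not tested. For Apoc1 it ran from 110.1 to 140.2 bases over the 6 livers, a ratio of 1.27, and for Apoa2 and Apoc3 the ratios were 1.19 and 1.18. For Apob, the longest, it was 1.003. Liver WT 1 had the highest value for each gene.

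**Figure D2:**
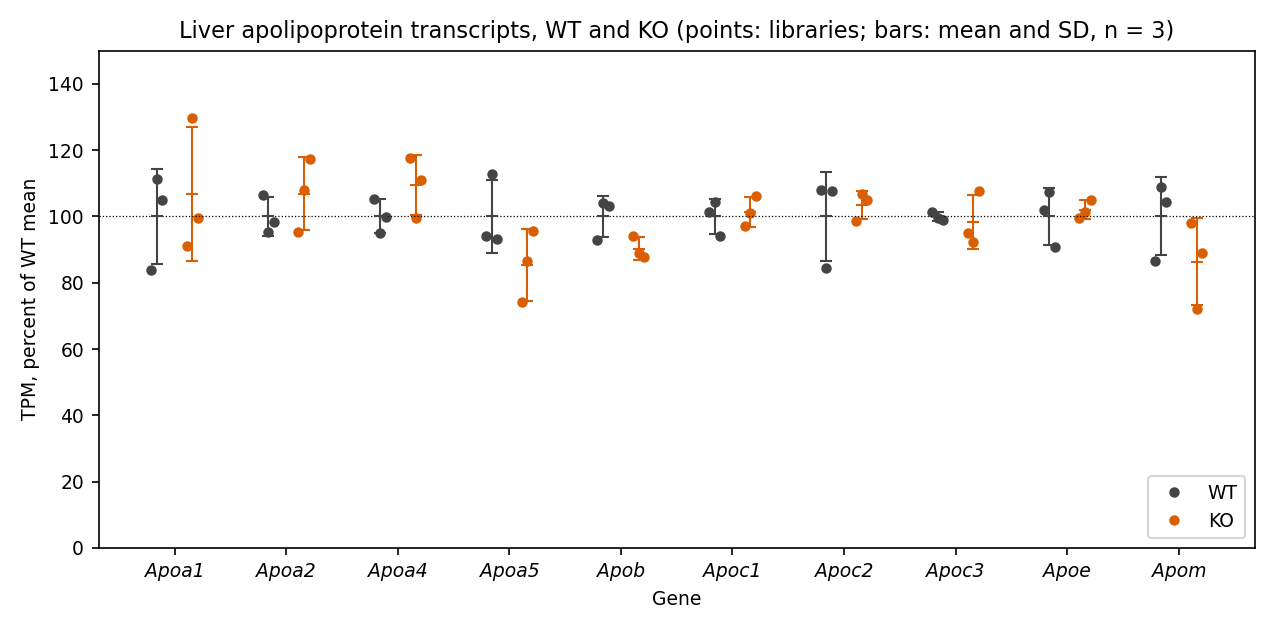
Liver TPM of each apolipoprotein gene as a percentage of its WT mean. Points are the 3 WT and 3 KO libraries, bars the mean and SD. WT and KO points overlap for all 10 genes.

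In BAT 4 of the 10 genes passed the filter, Apoa2, Apoc1, Apoc3 and Apoe, and edgeR called 0 of 4, with 0.54% of 12588 genes called (0.389% higher and 0.151% lower in KO). None had an unadjusted p under 0.05 (18.5% of all genes), and DESeq2 and limma-voom also called 0. That unadjusted count was 1 on log2(TPM + 1) and log2(TPM + 0.1), with all 24 libraries in 1 fit, without WT 3 and without KO 1. Here too the share of all genes under these settings was not worked out. Apoc1, the member highest in BAT, was at 2081, 3088 and 3429 TPM in KO and 2328, 3139 and 2696 TPM in WT, with a log2 fold change of 0.26 (SE 0.19, 95% interval -0.18 to 0.69, adjusted p = 0.48). Its KO libraries spread on both sides of the WT range. The value was 0.054 on log2(TPM + 1), 0.44 without KO 1 (adjusted p = 0.14) and 0.11 without KO 3, so its size was not settled. Apoe was at 2241, 1641 and 1934 TPM in KO and 2155 to 2248 TPM in WT, a change of -0.07 (SE 0.11, 95% interval -0.33 to 0.19, adjusted p = 0.77) that was 0.03 without KO 2. Apoa2 (0.88, SE 0.46, adjusted p = 0.34) rested on 22 WT and 39 KO counts, and Apoc3 (0.53, SE 0.47, adjusted p = 0.56) on 44 and 61. Without KO 2, Apoc3 gave -0.11. In BAT the 14 macrophage markers summed to 679 TPM in WT 1, 239 and 287 in the other WT libraries and 212 to 281 in KO, and all 14 had values below 0, with 0 called and 2 at an unadjusted p under 0.05. Without BAT WT 1, Apoa2 was 0.94, Apoc1 0.20, Apoc3 0.49 and Apoe -0.08, with none called. The part of macrophage and muscle transcripts in these values was not tested.

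In IAT 4 genes passed, Apoc1, Apoc2, Apoc3 and Apoe, and edgeR called 0 of them, as it called 0% of the 14097 genes tested, of which 15.8% had an unadjusted p under 0.05. DESeq2 and limma-voom called 0 of the members too. Apoc2 was the member with an unadjusted p under 0.05. It was at 6.64, 4.64 and 7.31 TPM in WT and 2.46, 3.72 and 2.85 TPM in KO, so the 3 KO libraries lay below the 3 WT libraries, as 18.5% of the genes tested had groups that did not overlap in CPM (counts per 1e6 counts). The log2 fold change was -1.07 (SE 0.35, 95% interval -1.92 to -0.21, adjusted p = 0.27). With all 24 libraries in 1 fit, which shares the spread across tissues, it was -1.08 with adjusted p = 0.041, and that fit called 2573 genes in IAT. Over the 17 other settings the value stayed between -1.37 and -0.65 (adjusted p from 0.041 to 0.77). The value nearest 0 was that without the lymphocyte-rich KO 1 and KO 3, and the one farthest from 0 that without the muscle-rich WT 1 and WT 2. Alb was also without overlap in IAT, at 64.8, 48.0 and 37.1 TPM in WT and 16.6, 28.8 and 25.0 TPM in KO, while other hepatocyte markers did not separate the groups: Mup3 was at 23.7, 16.8 and 19.9 TPM in WT and 6.62, 20.6 and 14.3 TPM in KO. Ttr and Cps1 were at 0 in all 6 libraries. Of the 9 hepatocyte markers tested in IAT, 4 had values above 0 and 5 below. Summed over the 20 hepatocyte markers, the groups overlapped, at 4545 to 5238 TPM in WT and 2719 to 7400 TPM in KO. That sum was mostly Cyp2e1 and Trf, which fat also expresses, so it cannot show whether hepatocyte transcripts differed between the groups. The part of hepatocyte transcripts in the Apoc2 value was not tested.

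Apoe in IAT was at 3343, 6168 and 4519.9 TPM in WT and 4046, 3689 and 3799.8 TPM in KO, with a change of -0.35 (SE 0.32, 95% interval -1.13 to 0.43, adjusted p = 0.58). The KO libraries lay within the WT range. Apoc1 was at 333, 647 and 564 TPM in KO around the narrow WT range of 517 to 532 TPM, with a change of -0.01 (SE 0.27, adjusted p = 0.98). Its value was 0.44 without KO 1 and KO 3, the libraries rich in lymphocyte transcripts. Apoc3 gave -0.19 (SE 0.37, adjusted p = 0.80), and 0.27 without those 2 libraries.

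The macrophage markers differed among the same IAT libraries. Their summed TPM was 2606, 7242 and 9456 in WT and 3919, 1724 and 2841 in KO, and 13 of the 14 had values below 0 for KO minus WT, with 0 called and 10 at an unadjusted p under 0.05. Apoe was highest in WT 2 and WT 3, the libraries with the most macrophage transcripts. Apoc2 was not ordered that way, with WT 1 at 6.64 TPM beside a macrophage sum of 2606 and KO 1 at 2.46 TPM beside 3919. Summed adipocyte markers ran from 36863 TPM in KO 1 to 97482 TPM in KO 2. The part of these cell types in the values was not tested.

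**Figure D3:**
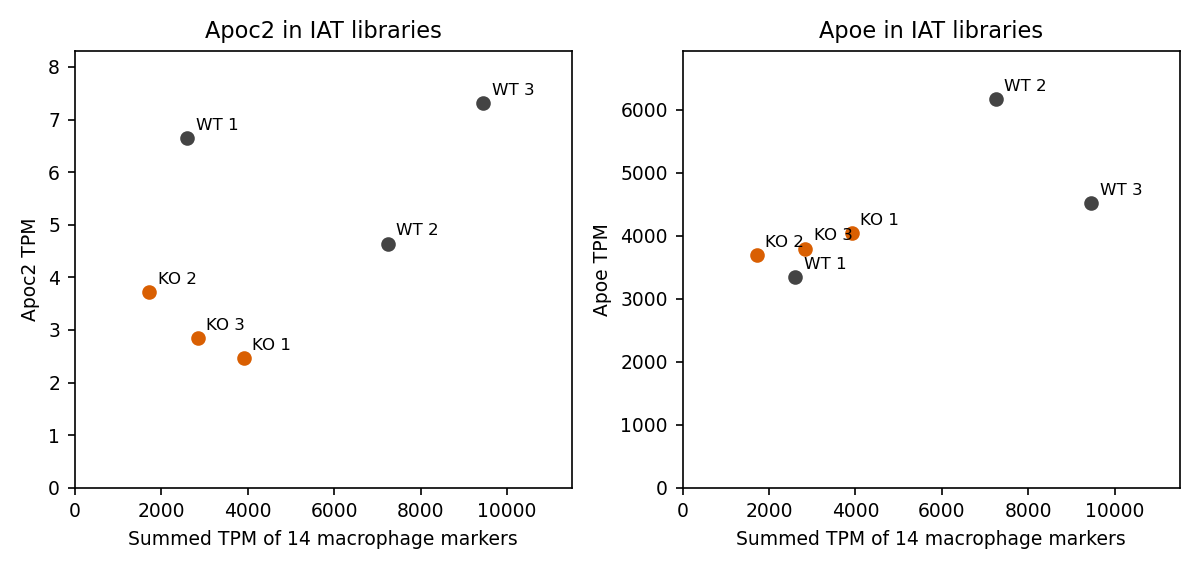
Apoc2 TPM and Apoe TPM against the summed TPM of 14 macrophage markers in the 6 IAT libraries, each labelled. The 3 KO libraries have the lowest Apoc2 at any macrophage sum, and the highest Apoe is in WT 2 and WT 3.

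In brain Apoe was the member that passed the filter. It was at 2685, 2313 and 2639 TPM in WT and 2265, 2202 and 2902 TPM in KO, with overlap. Its log2 fold change was -0.08 (SE 0.13, 95% interval -0.39 to 0.23, adjusted p = 0.92) in edgeR, which called 0.0487% of 14385 genes (0.0139% higher and 0.0348% lower in KO), and its unadjusted p was above 0.05, as it was for all but 6.58% of genes. DESeq2 and limma-voom did not call it. The value was 0.00057 without KO 1. The brain astrocyte marker sums overlapped too, at 2437 to 2671 TPM in WT and 2537 to 3012 TPM in KO. Apoc1 in brain was at 16.6, 7.36 and 2.61 TPM in KO from 16 counts in all, which is too few to test.

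Whether the knockout change differed between tissues was tested directly in the 24 libraries. By edgeR's F-test on the tissue-by-genotype terms 0 of 10 genes were called, beside 0.421% of 16169 genes, and limma-voom also called 0. Apoa1, Apoa4, Apoa5, Apob and Apom had at most 10 counts per group outside liver. The test could hardly show a difference for them, so the 0 says little about these genes. Apoc2 was the 1 gene of the 10 at an unadjusted p under 0.05 (adjusted p = 0.20), with 0.15 in liver and -1.07 in IAT. The share of all genes at that unadjusted p was not worked out, so whether 1 of 10 is above that share is not known. Without IAT WT 3, KO 1 or KO 3 the count of members was 0. Outside liver and IAT, Apoc2 had 7 WT and 8 KO counts in BAT and 0 and 2 in brain.

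**Figure D4:**
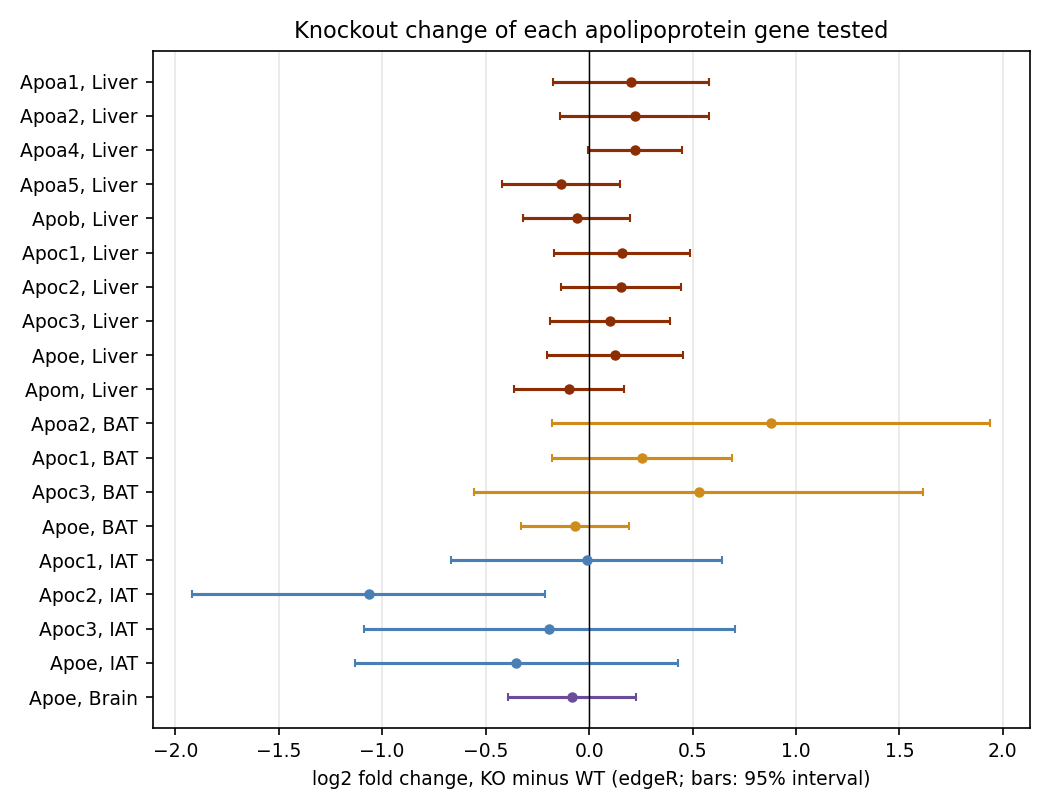
Log2 fold change, KO minus WT, of each gene in each tissue where it passed the filter, with its 95% interval. Liver intervals are narrow and include 0, and the interval of Apoc2 in IAT, from -1.92 to -0.21, is the one that does not.

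The genes that act with apolipoproteins were described by 6 lists. Of 21 other apolipoproteins and lipoprotein-borne proteins, 17 were tested in liver and 1 was called, beside 1.11% of all genes: Saa4, a serum amyloid A protein carried on HDL. It was at 254, 211 and 263 CPM in WT livers and 364, 459 and 438 CPM in KO livers, without overlap (as for 21.6% of liver genes), and rose by 0.79 on the log2 scale (SE 0.12, adjusted p = 0.022). The call did not hold without WT 1, WT 2, WT 3, KO 2 or KO 3 (adjusted p of 0.061, 0.079, 0.050, 0.062 and 0.064). Over all 15 other settings its adjusted p ran from 1.9e-07 to 0.097, so the call was also lost outside those listed. The median of the list was 0.10. None of the 7, 12 and 6 members tested in BAT, IAT and brain was called, beside 0.54%, 0% and 0.0487% of all genes there. In IAT Apod, a lipocalin carried on HDL, had -1.35 (SE 0.22, adjusted p = 0.16) and the phospholipid transfer protein gene Pltp -1.502 (SE 0.32, adjusted p = 0.21). Both were without overlap, as were 18.5% of the genes tested in IAT.

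Among 26 transcription factors known to act on apolipoprotein genes, all tested in liver, 1 was called, beside 1.11% of all genes. Nr1d1, the circadian repressor REV-ERB alpha, was at 14.6, 11.7 and 10.8 CPM in WT and 7.86, 6.09 and 7.07 CPM in KO livers, without overlap, like 21.6% of liver genes. It fell by 0.82 (SE 0.15, adjusted p = 0.047), and the call did not hold under limma-voom (adjusted p = 0.055) or without any 1 of the 6 libraries (adjusted p from 0.059 to 0.13). Over all 15 other settings its adjusted p ran from 0.0021 to 0.27, so the call was also lost outside those listed. The median of the list was -0.01. In BAT the carbohydrate-responsive factor gene Mlxipl had 0.96 (SE 0.18, adjusted p = 0.078) and Cebpb 1.86 (SE 0.41, adjusted p = 0.097). In IAT the immediate early gene Egr1 had -1.80 (SE 0.22, adjusted p = 0.13), and in brain Foxo1 had -0.57 (SE 0.13, adjusted p = 0.55). None of these 4 passed.

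No member of the other 4 lists was called in any tissue, where all-gene shares were those above. Of 23 genes of receptors and uptake, 18 were tested in liver, with 14 values below 0 and a median of -0.13. The fatty acid and lipoprotein scavenger receptor gene Cd36 was at 103, 57.5 and 84.6 CPM in WT and 24.8, 22.0 and 43.7 CPM in KO livers, a difference of -1.44 (SE 0.28, adjusted p = 0.051) just outside the threshold. In BAT the remnant receptor gene Lrp1 had -0.76 (SE 0.15, adjusted p = 0.079). In IAT Trem2, a macrophage lipid receptor gene, had -2.55 (SE 0.61, adjusted p = 0.22), and Stab2, a scavenger receptor gene of sinusoidal endothelium, had 5.001 (SE 1.17, adjusted p = 0.22), with 29.4 and 15.1 CPM in the lymphocyte-rich KO 1 and KO 3 and 1.01 CPM in KO 2.

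Of 23 genes of lipoprotein assembly and secretion, all tested in liver, 12 had values above 0 and 11 below. Sort1, a sorting receptor that binds apolipoprotein B, had -0.68 (SE 0.20, adjusted p = 0.14) in liver and -0.27 (SE 0.08, adjusted p = 0.17) in BAT. Of 12 plasma lipases and their controls, 11 were tested in liver, with Lpl, lipoprotein lipase, at -0.77 (SE 0.20, adjusted p = 0.12) and Lipc, hepatic lipase, at 0.24 (SE 0.09, adjusted p = 0.22). Of 9 genes of lipid transfer to apolipoproteins, 8 were tested in liver, with the sterol transporter pair Abcg8 at -0.53 (SE 0.17, adjusted p = 0.18) and Abcg5 at -0.42 (SE 0.15, adjusted p = 0.21).

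The chromosomal neighbours were followed as well. In liver Apoc4, between Apoc2 and Apoc1, had 0.16 (SE 0.12, adjusted p = 0.57), close to 0.15 for Apoc2 and 0.16 for Apoc1. Sik3 had -0.12 (SE 0.08, adjusted p = 0.52) and Zpr1 -0.22 (SE 0.18, adjusted p = 0.61) beside the chromosome 9 genes, and Tomm40 0.01 (SE 0.10, adjusted p = 0.97) beside Apoe. None of these was called.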

How the data were processed

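The authors deposited 1 table with expected counts, TPM and FPKM per library, per the file headers. The submitters' processing notes list RSEM 1.3.1, Bowtie2 2.3.4.3, build GRCm38.p6 and DESeq2 1.4.5, while annotation and strand setting are unstated. Another 24 per-sample columns, deposited as rescaled counts (a signal), were not used. Of 19015 gene identifiers 18958 matched RefSeq.

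Expected counts were rounded and tested with edgeR 4.0.16 in R 4.3.3 (TMM, filterByExpr, quasi-likelihood F-test) in the 6 libraries of each tissue, with Benjamini-Hochberg adjustment over all genes tested and calls under 0.05. Tissues were compared in the 12 WT libraries, and tissue-by-genotype terms in all 24. The script was tested on simulated data. Alternatives were RLE scaling, 2 other filters, DESeq2 1.42.0, limma 3.58.1 (voom, or trend on log2(TPM + 1) and log2(TPM + 0.1)), 1 fit of 24 libraries, a replicate block and leaving out libraries. Each p-value sets a difference against the spread between these libraries.

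Named were the 10 genes, Prxl2a, called list members or up to 2 with the smallest p, leading markers, the 2 genes most alike by r and chromosomal neighbours. Ttr, Cps1, Ambp, Mup3, Serpina1b, Serpina3k, Fgb and Snap25 were chosen after their values were seen. The genes and lists were chosen with earlier results of these data known.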

Additional observations from a re-analysis of the deposited data

How the results depend on the processing

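The count of called apolipoprotein genes stayed at 0 in liver, BAT and brain and for the tissue-by-genotype terms under each alternative, and at 10 of 10 for the WT tissues. In IAT it was 1 with all 24 libraries in 1 fit (Apoc2) and 0 under the others. Apoc3 in liver turned to -0.028 on both log2(TPM + 1) and log2(TPM + 0.1). Leaving out 1 library at a time turned the sign of Apom in liver (-0.18 to 0.020), Apoc3 in BAT (-0.11 to 0.85), Apoe in BAT (-0.17 to 0.033), Apoc1 in IAT (-0.31 to 0.23) and Apoe in brain (-0.23 to 0.00057). Without IAT KO 1 and KO 3, Apoc1 was 0.44 and Apoc3 0.27. In the WT tissues on log2(TPM + 1), BAT minus brain turned for Apoe (-0.22) and Apoa2 (-0.096). The cause was not tested. Leaving out IAT KO 1 and KO 3, or WT 1 and WT 2, was chosen after seeing the data, as were the alternatives for Saa4, Nr1d1, Prxl2a and Apoa2 between BAT and other tissues.

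With the replicate number as a block, 0 apolipoprotein genes were called in any tissue, for knockout and for the interaction, and 10 of 10 between WT tissues. Same-numbered WT and KO libraries had correlations of -0.24 to 0.39, over 0.1 in 3 of 12 pairs, so the numbers were not taken to pair WT with KO libraries. Same-numbered libraries of different tissues within a genotype had -0.28 to 0.23, over 0.1 in 7 of 36 pairs. Whether those came from the same mouse is not known. Calls over all genes under the block were 228, 1, 0 and 4 in liver, BAT, IAT and brain, and 24 for the interaction, against 137, 68, 0, 7 and 68 without it.

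Counts over all genes moved more. DESeq2 called 367, 449, 1121 and 51 genes in liver, BAT, IAT and brain, limma-voom 118, 55, 7 and 2, and the fit of 24 libraries 98, 173, 2573 and 10. Liver without a filter gave 218 and BAT on log2(TPM + 1) 29. The interaction gave 103 with RLE, 144 on log2(TPM + 1) and 47 with limma-voom. Low counts limit Apoa2, Apoc2 and Apoc3 outside liver, and Apoa1, Apoa4, Apoa5, Apob and Apom did not pass the count filter outside liver.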
